A study of Homo sapiens with 5 samples.

Results

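The mRNAs described here are those of 10 genes of the ATF4 axis and of serine and asparagine synthesis, measured by RNA-seq in RPE1 cells treated with doxorubicin. The genes are ATF4, DDIT3, TRIB3 and CHAC1, the asparagine synthetase gene ASNS, the serine synthesis genes PHGDH, PSAT1 and PSPH, and the mitochondrial one-carbon genes SHMT2 and MTHFD2. They were taken by symbol from a table of 26485 genes, and all 10 were found. ASNS was chosen by its measured fall after doxorubicin, so its difference from DMSO is given as a description with no test. The other 9 were taken by their roles, but with earlier results of these data known. All 10 were among the 14187 genes with enough counts to be tested.

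RPE1 cells are an established human line from the retinal pigment epithelium, with a genotype labelled WT in every library. Of the 5 libraries, 2 came from cells kept for 18 h with DMSO, the solvent of the drug, 2 from cells kept as long with 0.2 μM doxorubicin and 1 from cells with 0.34 μM doxorubicin. The concentrations are those of the sample titles, while the treatment protocol in the labels prints other figures. The study's methods call the libraries biological replicates and pool the 3 doxorubicin libraries against the 2 DMSO libraries. The lone library at 0.34 μM has no replicate of its own. Values are CPM (counts scaled to a common library size, with TMM factors between libraries), and fold changes are doxorubicin over DMSO from edgeR. A gene was called at an adjusted p-value under 0.01 from edgeR. The study's methods set this threshold for DESeq2, which is given here as an alternative. At 0.01 edgeR called 571 genes and DESeq2 called 2026. Calls given with no test named are those of edgeR.

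ATF4 is a bZIP transcription factor whose translation rises when eIF2α is phosphorylated, the common step of the integrated stress response. It turns on genes for amino acid synthesis and uptake, and also DDIT3 (CHOP), TRIB3 and CHAC1, which are used as markers of the response. The serine pathway leads from a glycolytic intermediate through PHGDH, PSAT1 and PSPH to serine, from which SHMT2 and MTHFD2 draw one-carbon units in mitochondria. The amount of ATF4 protein is set largely by translation of its mRNA, which RNA-seq does not measure.

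ATF4 binds DNA with C/EBP partners at sites known as C/EBP-ATF response elements. In RefSeq promoter windows (GRCh38.p14, 250 bases before to 50 after the start) the core TGATGNAA was searched on both strands. It was found in 2 of the 8 members with a window, ASNS and CHAC1, and in 3.62% of all 35116 windows. PSPH and SHMT2 had no window here. The cyclic AMP response element TGACGTCA, searched likewise on both strands, was in none of the 8, and in 1.85% of all windows. Members were counted by gene, and a gene can have several windows, so members and windows are unlike units. The stretches around the 2 matches are shown 5′ to 3′ along the gene, with the match in capitals, since ASNS was far lower in doxorubicin and CHAC1 overlapped between the treatments. For ASNS the stretch is chr7:97872449-97872496 (minus strand), with the match 68 to 61 bases before the start. For CHAC1 it is chr15:40953242-40953289 (plus strand), with the match on the other strand, 209 to 202 bases before the start.
ASNS: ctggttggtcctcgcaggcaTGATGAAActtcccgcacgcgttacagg
CHAC1: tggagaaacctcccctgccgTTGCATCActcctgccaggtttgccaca
A match is a run of letters, and binding was not measured.

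The treatment was checked on genes with a known response to DNA damage. CDKN1A, the p21 inhibitor of cell cycle kinases and a p53 target, rose with a log2 fold change of 3.39 (SE 0.23, adjusted p = 0.000768). MDM2, which restrains p53, rose by 2.19 (SE 0.23, adjusted p = 0.00246). The proliferation gene MKI67 fell by 4.65 and the mitotic cyclin CCNB1 fell by 3.87 on the log2 scale (adjusted p = 0.000694 and 0.00181). The total counts lay between 23773061 and 36725345 per library. Of 11 markers of retinal pigment epithelium, 6 averaged under 1 CPM, among them RPE65, RLBP1 and TTR, while MITF and OTX2 averaged 44.4 and 26.0 CPM in doxorubicin, so some defining genes of the mature epithelium were at or near 0. The markers summed to 637 to 783 CPM in DMSO and 1050 to 1249 CPM in doxorubicin, and most of each sum was KRT8 and KRT18, keratins of simple epithelia in general. KRT8 was at 369 and 346 CPM in DMSO and at 661, 636 and 661 CPM in doxorubicin, while MITF and OTX2 overlapped between the treatments. Of 8 markers of other cell types, 7 averaged under 1 CPM and CD3E had no count in any library, with sums of 0.610 to 1.02 CPM in DMSO and 2.24 to 3.42 CPM in doxorubicin. The largest part of each sum in doxorubicin was PTPRC, a leukocyte gene, with 5 and 7 counts in DMSO and 25, 53 and 72 counts in doxorubicin. In bulk RNA, fewer cells of a kind and less RNA per cell cannot be told apart.

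Of the 9 members other than ASNS, 1 was called, PHGDH, the enzyme of the first step to serine, and it was lower after doxorubicin. PSAT1, SHMT2, MTHFD2 and ATF4 were lower in value in every doxorubicin library and not called. Over all genes tested 4.02% were called, 2.73% lower and 1.29% higher. In 5 of the 9, PHGDH, PSAT1, SHMT2, MTHFD2 and ATF4, every doxorubicin library lay below both DMSO libraries, against 23.4% of all genes tested. With DDIT3, whose doxorubicin libraries lay above, 6 of the 9 did not overlap between the groups, against 47.7% of all genes. The median log2 fold change of the 9 was -0.31, against 0.013 over all genes. Since the 9 were chosen with earlier results of these data known, these shares are a description and no independent finding. DESeq2 on the same groups called 3 of the 9, all lower (PHGDH, PSAT1 and SHMT2), where it called 7.72% of all genes as lower and 14.1% in either direction.

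**Figure D1:**
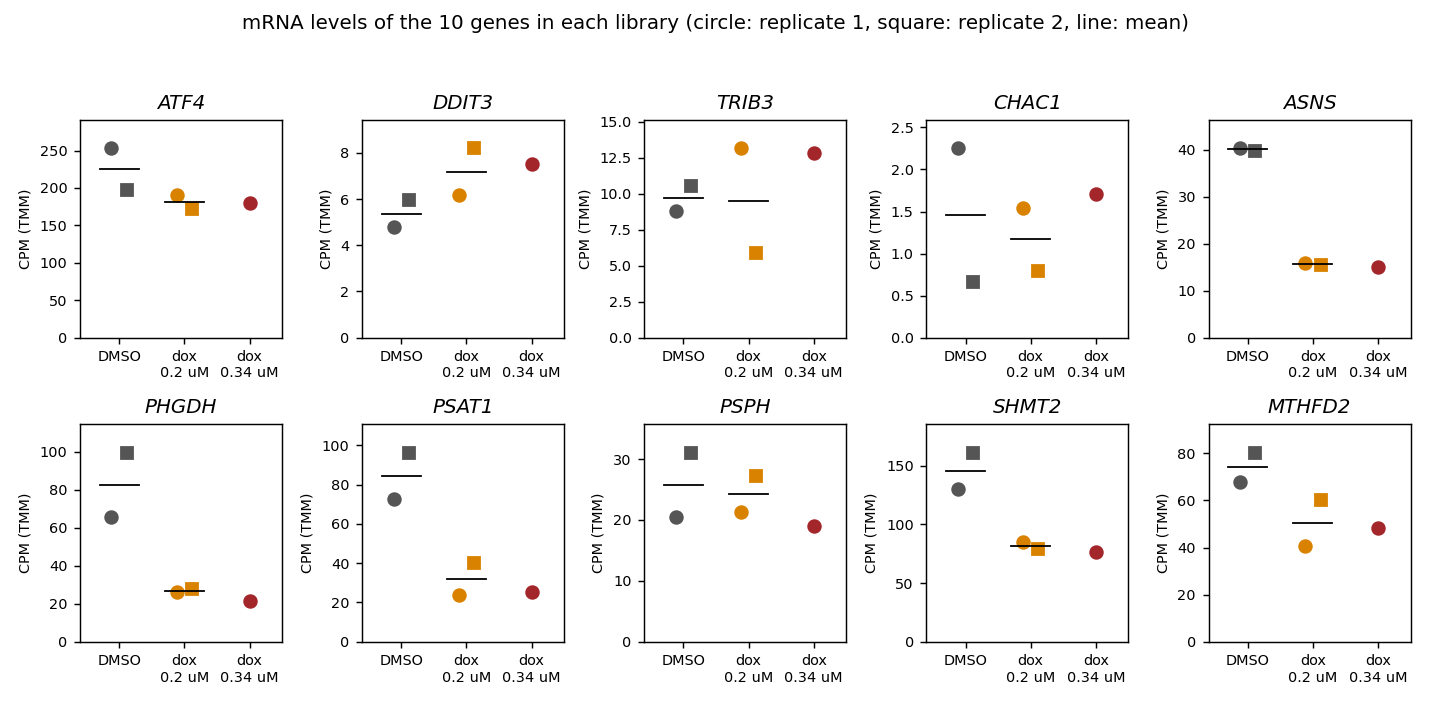
Level of each of the 10 mRNAs (vertical axis, CPM after TMM scaling, starting at 0) in every library, grouped by treatment, with circles for replicate 1, squares for replicate 2 and a line at the mean of each pair. ASNS sits near 40 CPM in both DMSO libraries and between 15.1 and 15.8 CPM in the 3 doxorubicin libraries, and CHAC1 and TRIB3 overlap between the treatments.

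ASNS, which makes asparagine from aspartate and glutamine, was at 40.3 and 39.8 CPM in the DMSO libraries. It was at 15.8 and 15.4 CPM at 0.2 μM and at 15.1 CPM at 0.34 μM. The libraries of each treatment were thus close together and the treatments far apart, and the mean in doxorubicin was 38.5% of that in DMSO. The log2 fold change was -1.38.

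PHGDH makes the first committed step from 3-phosphoglycerate to serine. Its level was 65.6 and 99.6 CPM in DMSO, 26.3 and 27.7 CPM at 0.2 μM and 21.4 CPM at 0.34 μM. The DMSO libraries differed from each other by 0.60 on the log2 scale, and both were far above all doxorubicin libraries. PHGDH fell with a log2 fold change of -1.72 (SE 0.22, adjusted p = 0.00544 from edgeR), to 30.4% of its mean in DMSO. When single libraries were left out, the log2 fold change stayed between -1.998 and -1.40. The call was kept without DMSO replicate 1 (adjusted p = 0.00873) and lost without any other library, with adjusted p-values of up to 0.0236. Over the 13 alternative settings its adjusted p was between 1.41e-09 and 0.0252.

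PSAT1, the aminotransferase of the second step, was at 72.4 and 96.2 CPM in DMSO. In doxorubicin it was at 23.7 and 40.2 CPM at 0.2 μM and at 25.3 CPM at 0.34 μM. The groups did not overlap, though the 0.2 μM libraries lay 0.76 apart on the log2 scale. Its log2 fold change was -1.51 (SE 0.27) and it lay just outside the threshold (adjusted p = 0.0151 from edgeR). DESeq2 called it (adjusted p = 6.76e-06), and its adjusted p was between 6.76e-06 and 0.0646 over the 13 alternatives.

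PSPH, the phosphatase that releases serine in the last step, had 20.4 and 31.1 CPM in DMSO. It had 21.4 and 27.1 CPM at 0.2 μM and 19.0 CPM at 0.34 μM. The groups overlapped, and the spread within a treatment was larger than the difference between treatments. The log2 fold change was -0.19, with a 95% interval of -0.78 to 0.40 and an adjusted p of 0.645 from edgeR. Without DMSO replicate 2 it was 0.12.

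PHGDH and PSAT1 were thus farther below their DMSO levels in value than PSPH. The 95% intervals of PHGDH (-2.25 to -1.19) and PSAT1 (-2.14 to -0.87) overlapped, so these 2 were not told apart. Per length of transcript, the ratio of PHGDH to PSPH was 3.40 and 3.39 in the DMSO libraries and 1.30, 1.08 and 1.19 in the doxorubicin libraries. The ratio of PSAT1 to PSPH was 3.18 and 2.77 in DMSO and 0.9903, 1.33 and 1.20 in doxorubicin. Both ratios separated the treatments without overlap, as PHGDH and PSAT1 already did by themselves. Of all single genes tested, 47.7% did not overlap between the groups. The ratios were not tested.

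SHMT2, the mitochondrial enzyme that splits serine into glycine and a one-carbon unit, was at 129.8 and 161 CPM in DMSO. It was at 84.5 and 79.0 CPM at 0.2 μM and 76.5 CPM at 0.34 μM. The doxorubicin libraries lay close together and below both controls. The log2 fold change was -0.86 (SE 0.15), outside the threshold in edgeR (adjusted p = 0.0145) and called by DESeq2 (adjusted p = 6.91e-05), with a range of 6.91e-05 to 0.0965 over the alternatives.

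MTHFD2, which oxidizes the one-carbon unit in mitochondria, was at 67.9 and 80.3 CPM in DMSO. It was at 40.8 and 60.0 CPM at 0.2 μM and 48.5 CPM at 0.34 μM. All doxorubicin libraries were lower than the controls, but the nearest of them was close to the lower control. The log2 fold change of -0.57 had a 95% interval of -1.05 to -0.10, and MTHFD2 was called neither by edgeR (adjusted p = 0.103) nor by DESeq2 (adjusted p = 0.0598), with a range of 0.0570 to 0.311 over the alternatives.

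The mRNA of ATF4 itself was abundant, with 252.8 and 197 CPM in DMSO, 190.7 and 172 CPM at 0.2 μM and 180.2 CPM at 0.34 μM. Every doxorubicin library was slightly below the lower control. The difference of -0.31 on the log2 scale (95% interval -0.70 to 0.07, adjusted p = 0.242 from edgeR) was smaller than that of -0.36 between the DMSO libraries. Per length of transcript, ASNS stood at 0.0948 and 0.12003 of ATF4 in DMSO and at 0.0493, 0.0533 and 0.0498 of it in doxorubicin. ASNS was chosen because it fell, so this lower ratio follows largely from that choice and was not tested.

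DDIT3 encodes CHOP, a factor linked to death after prolonged stress. It was at 4.77 and 5.95 CPM in DMSO, 6.19 and 8.19 CPM at 0.2 μM and 7.52 CPM at 0.34 μM. It was the only member with every doxorubicin library above the controls, by a small margin at replicate 1 of 0.2 μM. Its log2 fold change of 0.45 was not called (95% interval -0.15 to 1.04, adjusted p = 0.278 from edgeR).

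TRIB3, a pseudokinase that feeds back on ATF4, was at 8.81 and 10.5 CPM in DMSO. The 0.2 μM libraries were at 13.1 and 5.90 CPM and the 0.34 μM library at 12.8 CPM. One doxorubicin library thus lay below both controls and the others above them. The log2 fold change was 0.14 (95% interval -0.73 to 1.01, adjusted p = 0.837 from edgeR), and it was -0.034 without replicate 1 of 0.2 μM and -0.014 without the 0.34 μM library.

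CHAC1, which breaks down glutathione, had the lowest counts of the 10 genes. It had 59 and 17 counts in DMSO, 40 and 19 counts at 0.2 μM and 62 counts at 0.34 μM, or 2.25, 0.666, 1.55, 0.790 and 1.71 CPM in the same order. DMSO replicate 2 differed from replicate 1 by -1.76 on the log2 scale, the widest gap between the DMSO libraries among the 10 genes. The log2 fold change was -0.11 with a 95% interval of -1.52 to 1.31 (adjusted p = 0.925 from edgeR), and it turned to 1.02 without DMSO replicate 1 and to 0.16 without replicate 2 of 0.2 μM. With this spread between libraries of one treatment, neither a rise nor a fall could be shown.

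**Figure D2:**
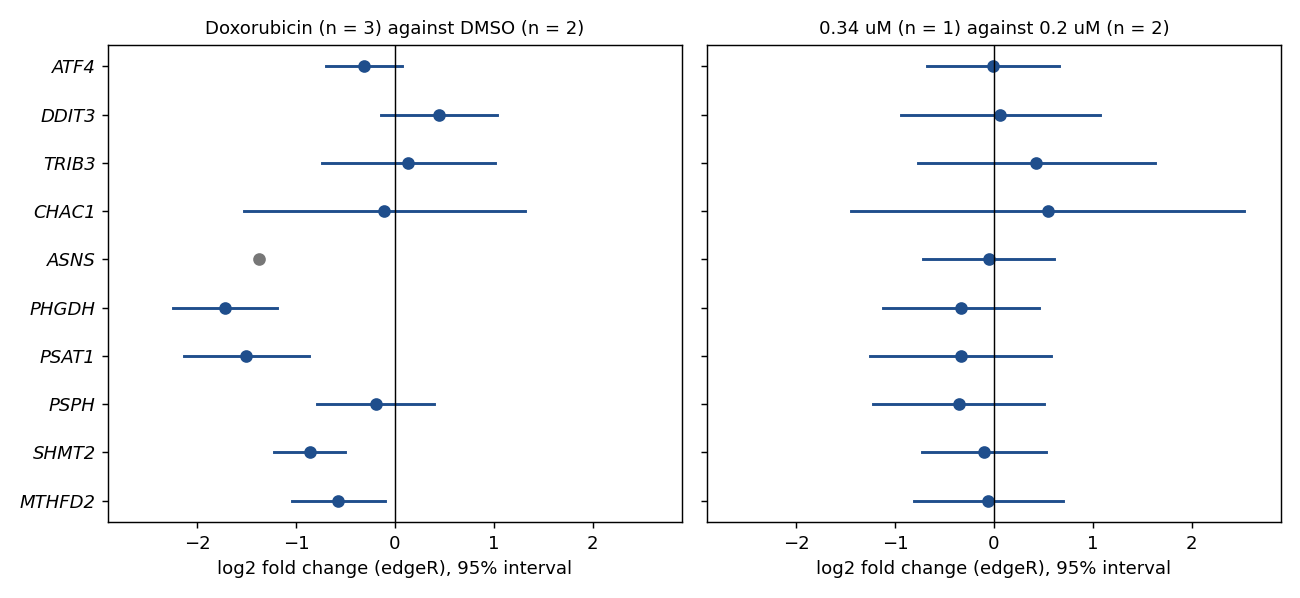
Log2 fold change from edgeR (points, horizontal axis) with its 95% interval (lines) for the 10 genes, on the left for doxorubicin against DMSO and on the right for 0.34 μM against 0.2 μM. ASNS is drawn in grey without an interval on the left because it was chosen on that difference, PHGDH is lowest at -1.72, and all intervals on the right include 0.

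For 0.34 against 0.2 μM no difference was called in the 10 genes. The 0.34 μM arm is 1 library, assumed to vary like the libraries of the other treatments, which limits what the test can call. This comparison was not used to choose ASNS. Of all genes tested edgeR called 0 at this threshold (0%), with 22 at an unadjusted p under 0.05, and DESeq2 called 0, with 33 at an unadjusted p under 0.05. None of the 10 was among the 22, and the smallest unadjusted p among the 10 from edgeR was 0.347, that of PHGDH. With only 22 of 14187 genes under 0.05, a count of 0 in 10 says little about these genes. The difference was -0.051 for ASNS (95% interval -0.71 to 0.61), -0.33 for PHGDH (-1.12 to 0.45) and -0.33 for PSAT1 (-1.25 to 0.58) on the log2 scale. These intervals are wide, and they do not show that the doses acted alike.

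Per kilobase of transcript, the order of the levels in DMSO ran from ATF4 (mean 159 CPM per kilobase) through SHMT2 (67.4), PHGDH (44.3), PSAT1 (38.2), MTHFD2 (16.8), ASNS (16.8), PSPH (13.0), DDIT3 (5.94) and TRIB3 (4.11) to CHAC1 (0.959). The ranges of the DMSO pairs overlapped between PHGDH and PSAT1, between MTHFD2 and ASNS and between MTHFD2 and PSPH, so these neighbours were not told apart. In doxorubicin the means of PHGDH, PSAT1, PSPH and MTHFD2 were 13.5, 13.5, 11.4 and 11.3 CPM per kilobase, and their ranges overlapped. ASNS, at 6.32 to 6.63 CPM per kilobase, was then below DDIT3, at 6.85 to 9.07, which it had exceeded in DMSO.

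**Figure D3:**
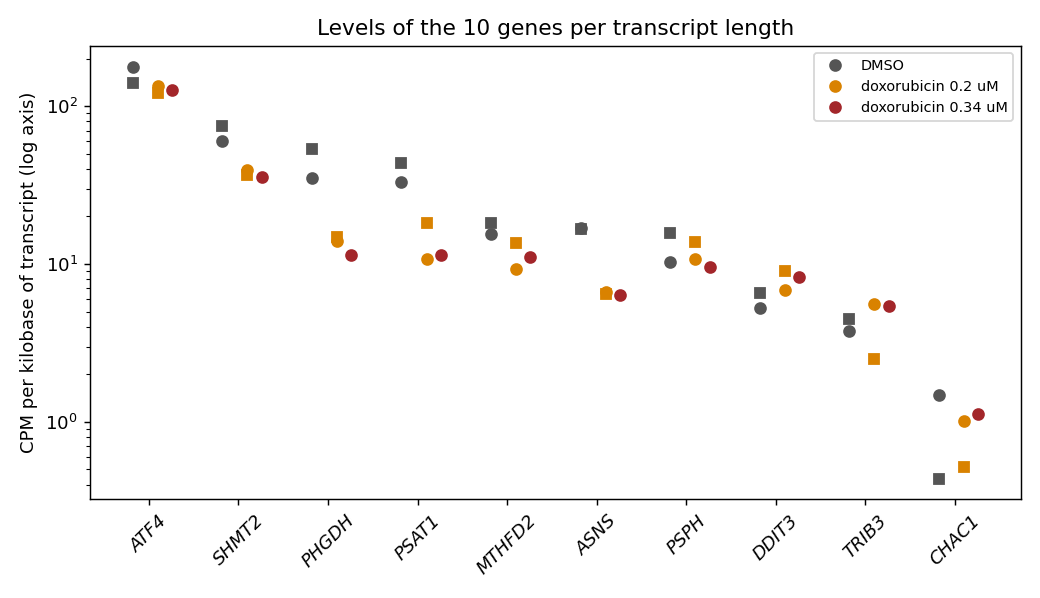
Level per kilobase of transcript (vertical log axis, CPM per kilobase) of the 10 genes in order of their DMSO mean, with grey for DMSO, orange for 0.2 μM and red for 0.34 μM doxorubicin, and circles and squares for replicates 1 and 2. PHGDH and PSAT1 stand between SHMT2 and MTHFD2 in DMSO and among PSPH and MTHFD2 in doxorubicin, and ASNS passes from above to below DDIT3.

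The genes around this axis were followed in 8 lists of 110 genes, of which 109 were matched and tested. Of these, 4 were called, a share near the 4.02% of all genes tested, so the count is no result about the lists. SESN2 was higher, and CEBPG, SLC6A9 and GGCT were lower. SESN2, a sestrin that restrains mTORC1 and is a target of both p53 and ATF4, rose from 11.4 and 12.8 CPM in DMSO to 57.7, 62.8 and 68.0 CPM (log2 fold change 2.38, SE 0.17, adjusted p = 0.000891 from edgeR). CEBPG, a bZIP partner of ATF4, fell from 20.3 and 19.3 CPM to 8.55, 8.56 and 8.54 CPM (log2 fold change -1.21, SE 0.17, adjusted p = 0.0072 from edgeR). Of these calls only that of SESN2 was kept with single libraries left out, and it was lost without DMSO replicate 2 (adjusted p = 0.0110). Those of CEBPG, SLC6A9 and GGCT were lost without any 1 library.

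At the head of the response, 0 of 14 genes for the eIF2 kinases, their phosphatase subunits and eIF2B were called by edgeR or DESeq2. Over all genes edgeR called 4.02% and DESeq2 14.1%, so a count of 0 in 14 says little about this list. Their median log2 fold change was 0.023, from -0.60 for EIF2AK2 (PKR) to 0.29 for IMPACT. In the 17 bZIP partners and other ATF4-linked factors the median was -0.047. Besides CEBPG and SESN2, GDF15, a stress cytokine, was the highest at 3.60 (SE 0.68, adjusted p = 0.0191 from edgeR), from 2 and 5 counts in the DMSO libraries to 29, 31 and 96 counts in the treated ones. ATF3, named after its values were seen, is a stress factor downstream of both ATF4 and p53 and was next, with 3.89 and 1.25 CPM in DMSO and 13.4, 15.3 and 12.8 CPM in doxorubicin (log2 fold change 2.42, SE 0.47, adjusted p = 0.0200 from edgeR). DESeq2 called 5 of the 17, GDF15 (adjusted p = 0.000182), ATF3 (adjusted p = 4.98e-07) and SESN2 as higher and CEBPG and ERO1A (adjusted p = 0.00967) as lower, where it called 14.1% of all genes.

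Of 10 amino acid transporters 8 were lower in value, with a median of -0.52, where 6933 of all 14187 genes tested were lower in value. SLC6A9, the glycine transporter GLYT1, fell from 36.8 and 33.5 CPM to 18.0, 16.5 and 18.1 CPM (log2 fold change -1.002, SE 0.15, adjusted p = 0.00971 from edgeR). The cystine transporter SLC7A11 was lowest at -1.07 (adjusted p = 0.0810 from edgeR), and its partner chain SLC3A2 was highest at 0.56 (adjusted p = 0.129 from edgeR). DESeq2 called SLC6A9 and SLC7A1, a transporter of cationic amino acids, as lower (adjusted p = 1.69e-06 and 5.74e-06). Of 19 cytosolic aminoacyl-tRNA synthetases 14 were lower in value and 0 were called by edgeR, with a median of -0.16, from -0.81 for GARS to 0.30 for QARS. DESeq2 called 2 of them as lower, GARS and WARS, where it called 7.72% of all genes as lower. Over all genes edgeR called 4.02%, so its count of 0 in 19 says little about this list.

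In the 16 genes of folate one-carbon and glycine metabolism 0 were called by edgeR. It called 4.02% of all genes, so a count of 0 in 16 says little about this list. DESeq2 called 3 as lower, SHMT1 and MTHFD1 among them, and 1 as higher (AMT), where it called 14.1% of all genes in either direction. The median was -0.42. ALDH1L2 was highest at 2.25, with 9 and 5 counts in DMSO (adjusted p = 0.106 from edgeR). SHMT1, the cytosolic counterpart of SHMT2 and named after its values were seen, was at 27.7 and 33.6 CPM in DMSO and at 13.5, 8.02 and 10.2 CPM in doxorubicin (log2 fold change -1.53, SE 0.25, adjusted p = 0.0114 from edgeR).

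The other lists held 1 call between them. In 7 genes of glutathione turnover GGCT, which acts on the products of glutathione breakdown, fell from 28.0 and 24.8 CPM to 10.6, 10.1 and 9.62 CPM (log2 fold change -1.39, SE 0.17, adjusted p = 0.00422 from edgeR), and GGT1 was highest at 1.36. Of 10 proline, aspartate and glutamine-linked enzymes 0 were called by edgeR or DESeq2, and the asparaginase ASRGL1 was lowest at -1.25. Of 16 genes of the unfolded protein response outside the ATF4 arm 0 were called by edgeR and 1 by DESeq2 (MANF, lower), with a median of -0.037, from -0.57 for MANF to 0.48 for DNAJB9. Over all genes edgeR called 4.02% and DESeq2 14.1%, so these small counts say little about the lists.

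**Figure D4:**
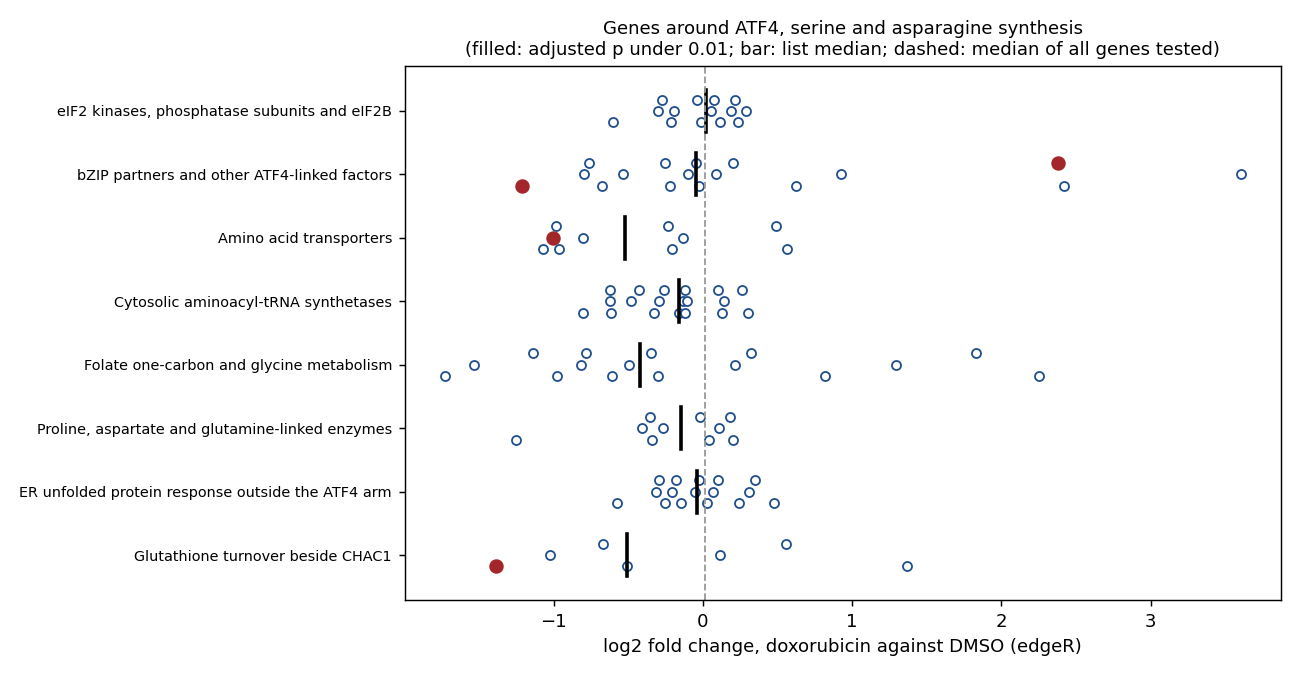
Log2 fold change (horizontal axis, doxorubicin against DMSO, edgeR) of each tested gene in the 8 lists, with filled red points for the 4 genes called, open points for the others, a black bar at each list's median and a dashed line at the median of all genes tested (0.013). The eIF2 and unfolded protein lists lie around 0, and the transporter, one-carbon and glutathione lists have medians between -0.52 and -0.42.

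Among the listed genes other than the members, 92 had a promoter window and 19 of these (20.7%) held the core TGATGNAA, against 3.62% of all windows. The first share counts genes, which can have several windows, and the second counts single windows, so they are unlike measures. Several lists were compiled for known links to ATF4 and others for their pathway, so that the share of 20.7% is no independent finding. Of the 19, 15 were lower and 4 higher in value, with a median log2 fold change of -0.24, and 1 was called, CEBPG. The stretches of CEBPG (chr19:33374051-33374098, plus strand) and ATF3 (chr1:212565196-212565243, plus strand) are shown because these genes lay farthest apart among the 19, at -1.21 and 2.42.
CEBPG: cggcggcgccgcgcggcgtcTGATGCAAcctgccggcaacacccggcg
ATF3: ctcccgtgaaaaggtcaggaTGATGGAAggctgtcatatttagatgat
Genes with the core lay on both sides of 0, with 15 of the 19 lower in value. Of all 14187 genes tested, 6933 were lower in value. Whether the core goes with direction was not tested.

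The genes whose profile over the 5 libraries was most like that of ASNS were CASP8AP2, PRDM8, SMC1A, HYLS1 and GGCT. Likeness was the root mean square difference of the log2 CPM, each centred on the gene's own mean, and it was 0.0341, 0.0374, 0.0487, 0.0523 and 0.0550 for these genes. Their log2 fold changes, between -1.45 and -1.34, were fixed by this choice. The members nearest to ASNS were PHGDH and SHMT2, at 0.274 and 0.275, which were ranks 423 and 432 in nearness among the genes tested. The proliferation genes MKI67 and CCNB1, given above, fell in the same libraries, and their part in the lower levels of ASNS, PHGDH, PSAT1 and SHMT2 was not tested.

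Some counts may include reads of other genes, since no source used here gives the strand setting of the counting. ASNS overlaps CZ1P-ASNS, RPS3AP29 and SNRPCP9, DDIT3 overlaps MARS1, LOC128125814 and MIR616, SHMT2 overlaps COXFA4L2, and MTHFD2 overlaps SLC4A5. RefSeq names 5 pseudogenes of ASNS, 4 each of ATF4 and PSAT1, 7 of MTHFD2 and 1 of PSPH, whose reads could be split with the gene. Of these only 1, of MTHFD2, was counted as a gene of its own here, and 0 of the others were. PHGDH, TRIB3 and CHAC1 overlap no other annotated gene and have no pseudogene named after them. In RefSeq on GRCh38.p14, ASNS lies at chr7:97851677-97928441, PHGDH at chr1:119711934-119744215, PSAT1 at chr9:78297125-78330093 and PSPH at chr7:56011064-56051444. SHMT2 lies at chr12:57229711-57234935 and MTHFD2 at chr2:74198615-74217565. ATF4 is at chr22:39520559-39522686, DDIT3 at chr12:57516588-57520517, TRIB3 at chr20:380760-397559 and CHAC1 at chr15:40953471-40956512.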

How the data were processed

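The authors enriched poly-A RNA, aligned paired-end reads to hg38 (STAR), summed them by gene (Rsubread featureCounts, iGenomes annotation) and deposited raw counts without normalization. No source used here gives the versions. A deposited table of the authors' own comparison (means, fold changes and p-values) was not used. R 4.3.3, edgeR 4.0.16 and, as an alternative, DESeq2 1.42.0 were used here. DESeq2 is the package of the study's own comparison. The quasi-likelihood test of edgeR was fitted to all 14187 genes that passed its filter (minimum count 10, minimum total 15), with TMM scaling and Benjamini-Hochberg adjustment over these genes. The doses were compared in a fit of 3 conditions. Standard errors are the log2 fold change over the root of the F statistic, and 95% intervals use the test's degrees of freedom. Lengths are those of MANE Select transcripts. The code was tested on simulated data. The chi-square of replicate pairs was 117 and 75.3 per degree of freedom, so none was a copy. Named were the members, the called, highest and lowest genes of each list, the checks and the 5 genes nearest to ASNS, and the lowest or highest gene of some lists is not reported here. The members and lists were chosen with earlier results of these data known. Of the 20 tRNA synthetases 17 were matched by older symbols, and EPRS1 was not matched. Alternatives were DESeq2, RLE scaling, other count filters, another threshold, 0.2 μM alone, a replicate block and leaving out each library.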

Additional observations from a re-analysis of the deposited data

How the results depend on the processing

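PHGDH was the only one of the 9 members other than ASNS to be called in the main test. The number called was 3 with DESeq2, 3 without the filter on low counts and 3 at a threshold of 0.05, and 0 for 0.2 μM alone. The listed genes called, 4 in the main test, were 15, 10, 13 and 1 in the same order, and all genes called, 571 in the main test, were 2026, 1020, 1927 and 171. Of the bZIP partners and ATF4-linked factors DESeq2 called 5, against 2. With RLE scaling or a minimum count of 30, both counts were as in the main test. With single libraries left out, between 0 and 1 members, between 0 and 2 listed genes and between 49 (without DMSO replicate 2) and 215 of all genes were called, and fewer libraries leave fewer degrees of freedom. For 0.34 against 0.2 μM the count was 0 under the 4 alternatives run (DESeq2, RLE and leaving out each 0.2 μM library). On the 2 DMSO and the 2 libraries at 0.2 μM, 2 members, 11 listed genes and 1249 of all genes were called with a replicate block, against 0, 1 and 178 without it. The deviations of libraries with the same number correlated across genes (r = 0.528), but with 2 pairs the labels do not show that the numbers pair the samples, and this r is a hint from the data only. Uncalled values turned sign: TRIB3 was -0.021 for 0.2 μM alone, -0.034 without replicate 1 of 0.2 μM, -0.014 without the 0.34 μM library (the same as for the 4 libraries without the block) and -0.11 with the replicate block, with a range of -0.034 to 0.43 when single libraries were left out. CHAC1 was 1.02 without DMSO replicate 1 and 0.16 without replicate 2 of 0.2 μM (range -0.74 to 1.02), and PSPH was 0.12 without DMSO replicate 2 (range -0.48 to 0.12). The cause was not tested. PHGDH, PSAT1, SHMT2, MTHFD2, ATF4 and DDIT3 kept their direction under all 13 alternatives. Not all of these are separate fits. The other threshold leaves the fold changes of the main test, and the 4 libraries without the block repeat the fit without the 0.34 μM library.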
